A study of Mus musculus with 3 samples.

Results

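The cells described here came from 1 single-cell RNA library of E14 mouse embryonic stem cells (129/Ola background) that had been kept in 250 µg/mL cycloheximide for 3 h. They were taken as the barcodes with at least 15000 UMIs (unique molecular identifiers, which mark single captured RNA molecules) and with 1 to 20% of UMIs from mitochondrially encoded genes. This gave 1739 cells of the 1521831 barcodes with a UMI in that library. The same rule gave 6480 cells over the 3 libraries of the series, of which 2187 were in the control and 2554 in the library treated for 6 h. The cycloheximide, which blocks the elongation step of translation, was dissolved in ethanol that reached 0.007% in the medium. Treatment began 24 h after seeding in serum with leukemia inhibitory factor, and the control received ethanol alone for 6 h. Cells were frozen before they were thawed for droplet capture, so what is measured is polyadenylated RNA after a freeze and thaw. With 1 library for each condition, no test between conditions is possible, and cells of 1 library are not replicates. All correlations below are descriptions over the same 1739 cells, which share a library and a fixed total.

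Serum-grown mouse embryonic stem cells are a mixed population. They differ in the stage of the cell cycle, in the level of pluripotency factors such as Nanog, and in signals such as BMP, whose direct targets include the Id genes. When translation stops, short-lived proteins such as cyclins and repressors are lost, and some RNAs that are normally removed during their own translation become stable. These include the host transcripts of small nucleolar RNAs, which are cleared by nonsense-mediated decay (NMD). The question here is which genes differed most between cells inside this library, and which genes went up and down together from cell to cell.

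To compare cells at equal depth, 15000 UMIs were drawn from each cell without replacement, and all levels below are such thinned UMIs. Before thinning, cells held between 15003 and 226321 UMIs with a median of 51726, and the mitochondrial share ran from 1.14 to 11.5% with a median of 3.52%. The lower limit cut through a sparse part of the distribution, with 8 barcodes in the 1000 UMIs below it and 15 in the 1000 above. Doublets were not removed, and 213 cells held more than 2 times the median UMIs. The library shared 3 cell barcodes with the control and 1 with the 6 h library. Variation was measured as the excess squared coefficient of variation (CV), which is the variance minus the mean, divided by the squared mean, and is 0 where cells differ only by counting. A gene was called variable where this value was at least 2 times the median of genes of similar mean.

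Of the fixed markers, Pou5f1, which encodes the pluripotency factor Oct4, was found in 99.9% of cells (exact binomial 95% interval 99.7 to 100%, counting error only). Its level ran from 0 to 25 UMIs with a median of 8, and only 1 cell had none. Free RNA, taken from barcodes with 10 to 100 UMIs, held Pou5f1 at 755 CPM (UMIs relative to the total) against 579 CPM in cells, and no cell type lacking Pou5f1 was defined here to give a background share. Pou5f1 was an even gene, with an excess squared CV of 0.026, below 2 times the bin median. Gas5, an NMD-sensitive snoRNA host, ran from 1 to 31 UMIs with a median of 11 and was called variable at 0.092. Jun and Egr1, which are immediate early genes, were uneven. Jun had a UMI in 42.4% of cells and reached 14 UMIs, with an excess squared CV of 1.34. Egr1 had a UMI in 27.1% and reached 11, with a value of 2.39. Free RNA held Jun at 30.0 CPM against 51.6 in cells, and Egr1 at 31.5 against 27.5, so 1 Egr1 UMI does not by itself show expression in a cell.

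Markers of other cell types differed in how widely they were found. Of the 6 endoderm factors Gata4, Gata6, Sox17, Sox7, Foxa2 and Dab2, 1589 cells had no UMI, 135 had UMIs of 1, 7 of 2 and 8 cells of at least 3. In those 8 cells Sparc, a matrix protein, had a mean of 32.9 UMIs against 1.91 in the rest, and the basement membrane genes Col4a1 and Lamb1 had 9.75 against 0.0855 and 7.50 against 0.168. Pou5f1 ran from 1 to 15 UMIs in them. The list of genes of the 2-cell-like state (Zscan4 genes and others) had UMIs in 1 cell of 1739, with 11 UMIs there. The summed endoderm list had a median of 3 UMIs per cell and a maximum of 189, and 114 cells had none. The fibroblast list had a median of 6 and a maximum of 38, with 18 cells at 0, and rested on Vim, S100a6, Lgals1 and Fn1, which have means from 1.397 to 1.63 UMIs and are not particular to fibroblasts. The list members Col3a1, Postn, Dcn and Lum had no UMI in any cell. Before thinning, Tagln had 412 UMIs over all cells, Thy1 146, Col1a1 25, Acta2 9, and Col1a2 and Mgp 2 each. The other lists had a median of 1 UMI. Their maxima were 22 for mesendoderm (455 cells at 0), 8 for neural ectoderm (635 at 0), 21 for germ cell genes (578 at 0) and 23 for trophoblast and simple epithelium (798 at 0).

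Of 6840 genes with a mean of at least 0.2 UMIs, 1489 were called variable, which is 21.8%. The share was 20.7% in the control and 21.4% in the 6 h library. The median excess squared CV was 0.0805 at 3 h, 0.0781 in the control and 0.0841 at 6 h. Called genes overlapped between libraries: 855 were also called in the control, which is 57.4% of the 3 h genes and 64.8% of the control genes. With the 6 h library 954 were shared, which is 64.1% of the 3 h genes and 64.5% of the 6 h genes. At low means the calls were noisy. In the lowest bin the counting error of the excess squared CV was 0.159, close to the bin median of 0.171, and in the highest it was 0.00274 against 0.0328. Over 5 separate draws of UMIs, 810 of the 1489 genes were called each time. Each other draw taken singly called between 71.1 and 72.6% of the 1489 genes again. The overlaps between libraries are to be read beside that share.

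The genes of highest excess squared CV are described below in several kinds. Lamb1, a laminin chain, was highest at 12.7 and Lama1, another laminin chain, had 7.33. Both rested on a few cells: Lamb1 had a 95th percentile of 1 UMI and a maximum of 26. Without the 8 cells that carried endoderm factors, Lamb1 had 0.527 and Lama1 0.783. Ccn1, a matrix-associated immediate early gene, likewise reached 21 UMIs over a 95th percentile of 1, and its value of 7.40 became 0.62 when every gene was capped at its 99th percentile. Lefty1, an inhibitor of Nodal signalling, had 10.6 and kept 4.20 under that cap. Its UMIs were concentrated, with 65.9% of them in the 5% of cells that had most.

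A further kind held stress and growth arrest genes, which did not all move together. Plk2, a p53-induced kinase, had an excess squared CV of 8.62, with 66.3% of its UMIs in the top 5% of cells. Gadd45g, a stress sensor gene, had 4.67 and ranged from 0 to 51 UMIs with a median of 0. Its closest gene was Id1 (r = 0.32), and it had only 0.11 with Btg2. Btg2, an antiproliferative p53 target, had 4.63 and ranged from 0 to 25. Ddit4l, the gene just outside the 20 highest, had 4.29. Outside this kind, Stmn2, which encodes a tubulin-binding protein, had 6.43, and its closest gene was Rpl23 (0.40). Hist1h2aa, a histone H2A gene, had 4.95, and its closest gene was Hist1h1b (0.24).

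The third kind included Gm26885, Aldh1a3, Xaf1, Gm16196, Sag, Dqx1, Gm13075, Chpt1 and Exoc1, with values from 4.57 to 10.2. None of these 9 had a partner gene with r of at least 0.15, and all were at least 2 times as high in free RNA as in cells. Tmem80, at 6.08, also lacked such a partner (best r 0.095), but had 24.2 CPM in free RNA against 16.9 in cells. Dqx1 had 241 CPM in free RNA against 21.9 in cells, Sag 155 against 20.1 and Gm16196, the lowest of them, 41.2 against 14.7. By contrast Plk2 had 15.4 against 16.1, Btg2 18.5 against 35.04 and Gadd45g 68.7 against 87.3. Over all genes tested the median ratio of free RNA to cells was 0.969, and 67 genes (0.980%) reached 2. Of those 67 genes, 50 were called variable (74.6%, against 21.2% of genes below that ratio), and 41 of the 50 had no partner at 0.15, against 784 of 1439 called genes below it. Over all genes tested 80.0% had no partner at 0.15, and the median best r was 0.110. Lack of such a partner is thus usual and does not set these genes apart from all genes. The 9 genes also had high values in the other libraries, from 4.05 (Chpt1) to 12.3 (Gm26885) in the control. The part that free RNA has in their variation was not tested. The grouping by this ratio was made after the values were seen.

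**Figure D1:**
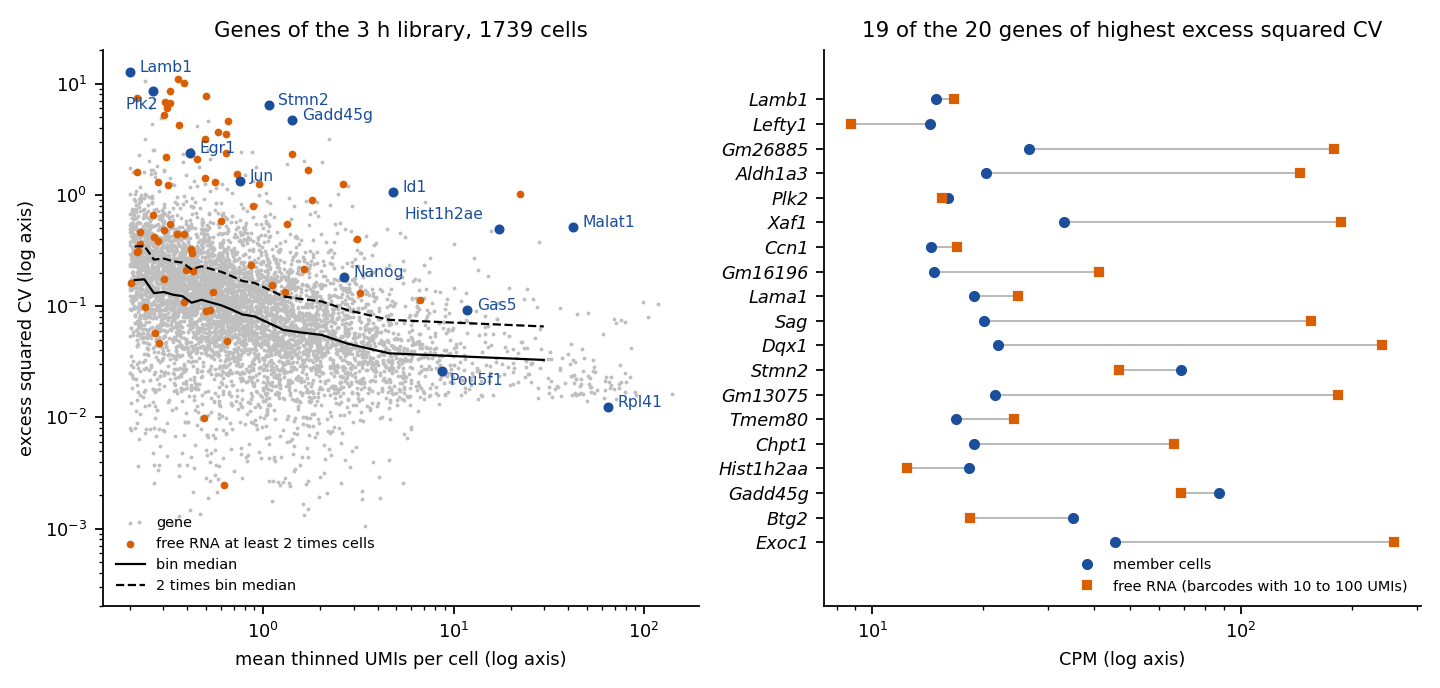
Left, excess squared CV against mean thinned UMIs for genes of the 3 h library on log axes, with the bin median (solid) and 2 times it (dashed); orange marks genes at least 2 times as high in free RNA as in cells, and 750 of 6840 genes with a value of at most 0.001 are not drawn. Right, CPM in cells (circles) and in free RNA (squares) for 19 of the 20 genes of highest value: 9 of these lie far higher in free RNA, Dqx1 most, at 241 against 21.9.

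Leaving those genes out, the next genes in rank were Cdkn1a, the p53-induced inhibitor of cyclin-dependent kinases, at 4.17, Fastkd1 at 3.16, Fabp3, a fatty acid binding protein, at 3.15, and Trp53inp1, another p53 target, at 2.59. Krt8, a keratin of simple epithelia, had 2.51, and Sdc4, a syndecan, had 2.41. Several of these values lean on the cells of highest count. Fastkd1 reached 16 UMIs over a 95th percentile of 1, Krt8 14 over 1 and Fabp3 109 over 6. Fastkd1 had only 0.167 in the control, where it was not called.

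The 10 most even genes of high level were separated by little. Among genes with a mean of at least 5 UMIs the lowest value was that of Pomp, a proteasome assembly factor, at 0.003, with a range of 0 to 14 UMIs and a median of 5. Sf3b5, Snrpb and Lsm4, components of the spliceosome, had 0.006, 0.008 and 0.011. Rpl41, a ribosomal protein gene, ran from 22 to 115 UMIs with a median of 65 and had 0.012. Nudt21, Swi5, Timm13, Ndufb9 and Rbx1 completed the 10 lowest, none above 0.013. The counting error of the excess squared CV was 0.00754 for genes with means from 3.36 to 6.29 UMIs, so which genes are among the 10 is uncertain. Only 5 of 83 ribosomal protein genes were called, and their median excess squared CV was 0.0221.

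Gene lists differed in how many of their members were variable. Against the 21.8% of all genes, 34 of 35 replication histone genes were called, 17 of 18 p53 targets, 12 of 13 immediate early genes and 13 of 13 mitochondrially encoded genes. In the pluripotency lists 12 of 15 naive genes and 8 of 12 core genes were called. Relative to the median of genes of similar mean, the list medians were 13.6 for p53 targets, 7.34 for histones, 6.72 for immediate early genes, 4.37 for naive genes, 2.26 for core pluripotency genes and 0.675 for ribosomal protein genes. Of genes of mitosis and G2, 40 of 57 were called, and of S phase genes 10 of 41. Endoplasmic reticulum chaperones had 8 of 11, snoRNA hosts 10 of 15, the integrated stress response 9 of 12, formative genes 5 of 7, ERK feedback genes 6 of 9 and imprinted genes 7 of 9. Cholesterol synthesis had 8 of 17, heat shock genes 4 of 12 and glycolysis 5 of 16. With each gene capped at its 99th percentile the p53 count was 11 and the S phase count 16.

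Across pairs, 4138 genes with a mean of at least 0.5 UMIs gave 8559453 pairs. Pearson r of log2(UMIs + 1) was at least 0.2 for 6120 pairs, which is 0.0715%, and at most -0.2 for 3056, which is 0.0357%. The median was 0.0015, and 98% of pairs lay between -0.094 and 0.096. A few families held many of the positive pairs: 2084 of 3321 pairs of ribosomal protein genes, 166 of 231 pairs of histone genes and 56 of 66 mitochondrially encoded pairs. Among the 8086231 pairs free of these families, 1719 reached 0.2. Pairs with starts within 1 Mb of each other did so in 11 of 15456 cases (0.0712%), pairs further apart on a chromosome in 146 of 434384 (0.0336%) and pairs on different chromosomes in 1562 of 7636391 (0.0205%).

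**Figure D2:**
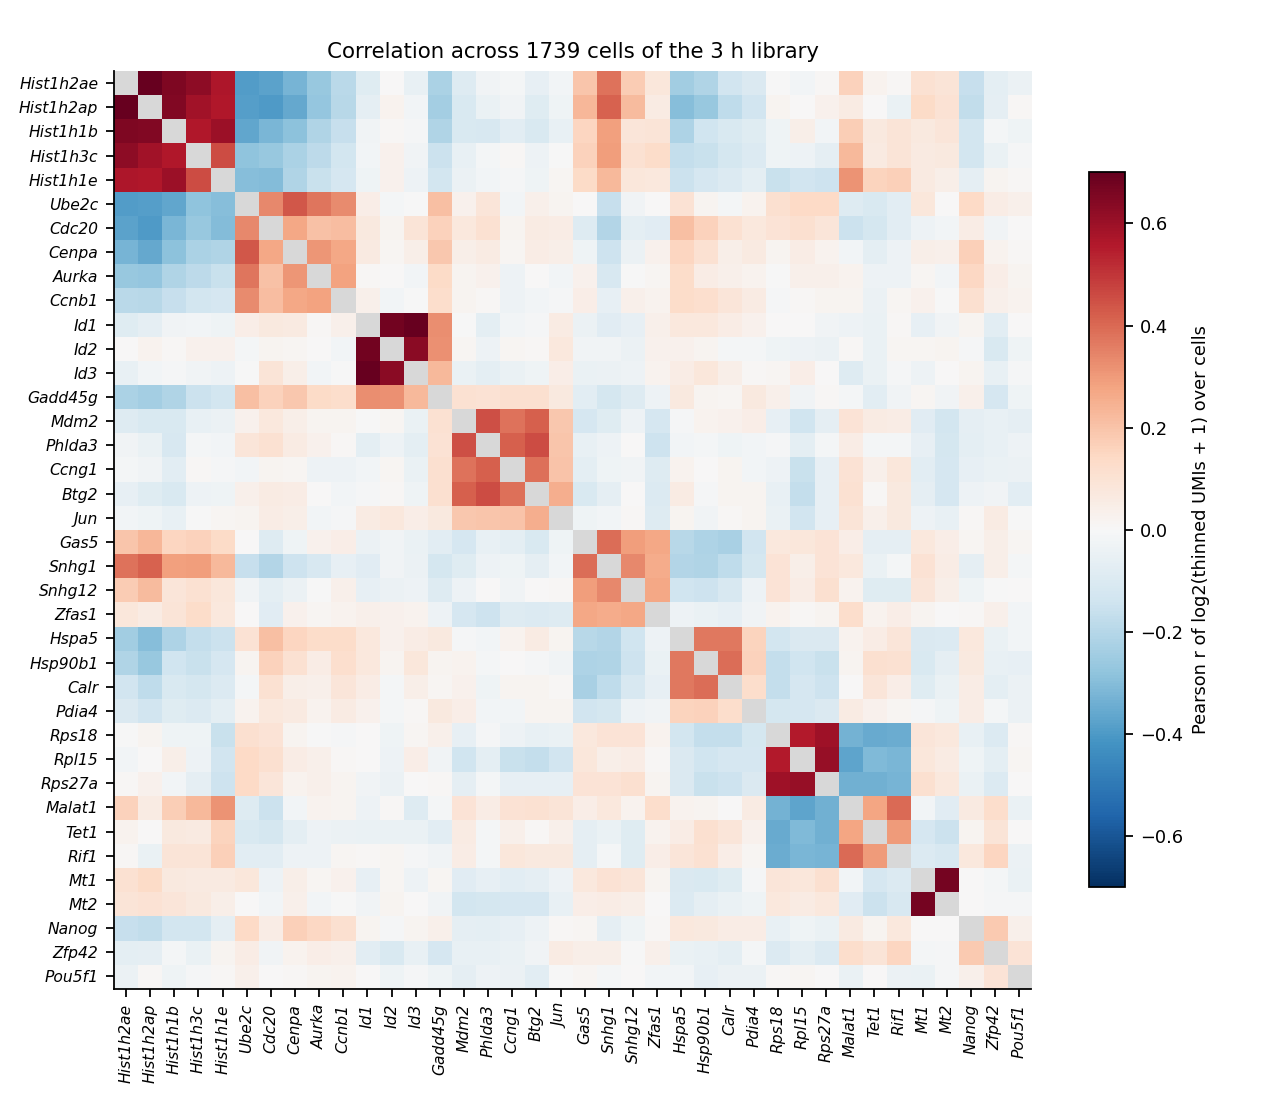
Pearson r across 1739 cells for 38 genes on both axes, with red for positive and blue for negative values and grey on the diagonal. Blocks of red mark the histone genes, the mitotic genes, Id1 to Id3, the p53 targets, the snoRNA hosts, the chaperones, the ribosomal proteins and the metallothioneins, and the histone and mitotic blocks are blue against each other.

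The promoters of 5 genes are shown as examples of windows that hold a motif known from their group, as 250 bases upstream of the RefSeq start (GRCm38.p6, 5′ to 3′ on the gene's strand). The motif searched is in capitals, and matches on both strands were counted. Mitotic genes are known for the CHR element TTTGAA. Group counts here and below cover genes with a mean of at least 0.2 UMIs that had a window. The element lay in the window of 21 of 50 G2 and mitosis genes (42%) and of 16 of 32 histone genes (50%). It lay in 13.1% of 5515 genes of the level tested and in 18.3% of all 27025 genes of the RefSeq table. Ube2c lies on chromosome 2 (chr2:164769679-164769928, plus strand) and its match starts at position -29; Cdc20 lies on chromosome 4 (chr4:118437344-118437593, minus strand) and its match starts at -18. The windows of Cenpa, Aurka and Ccnb1, of the same mitotic group, held no match.
Ube2c: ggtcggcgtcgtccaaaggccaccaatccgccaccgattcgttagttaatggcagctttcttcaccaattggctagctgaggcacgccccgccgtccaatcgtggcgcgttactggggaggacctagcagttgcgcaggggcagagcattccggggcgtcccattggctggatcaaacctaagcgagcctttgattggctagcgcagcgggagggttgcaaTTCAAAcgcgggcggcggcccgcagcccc
Cdc20: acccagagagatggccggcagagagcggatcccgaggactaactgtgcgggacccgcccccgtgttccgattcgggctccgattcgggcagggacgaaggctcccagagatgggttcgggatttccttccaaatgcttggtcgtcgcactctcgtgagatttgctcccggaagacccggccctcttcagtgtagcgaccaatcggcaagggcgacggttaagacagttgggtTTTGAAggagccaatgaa
The window of Hist1h2ae on chromosome 13 (chr13:23571221-23571470, minus strand) held the octamer ATTTGCAT, known from H2B promoters, on the strand opposite to the gene. H2A and H2B genes commonly lie head to head and share their upstream sequence, so such a match may lie in the promoter of the neighbouring gene. The windows of Hist1h2ap and Hist1h1b held none. Of H2B genes looked at singly, Hist1h2bk held 1 match, while Hist1h2br, Hist1h2bn, Hist1h2bl and Hist1h2bf held none. Among H2A and H2B genes with a window, 8 of 18 held the octamer. The octamer lay in 8 of 32 histone genes, all of them H2A or H2B genes, against 1.32% of genes of the level tested and 1.81% of all genes in the table.
Hist1h2ae: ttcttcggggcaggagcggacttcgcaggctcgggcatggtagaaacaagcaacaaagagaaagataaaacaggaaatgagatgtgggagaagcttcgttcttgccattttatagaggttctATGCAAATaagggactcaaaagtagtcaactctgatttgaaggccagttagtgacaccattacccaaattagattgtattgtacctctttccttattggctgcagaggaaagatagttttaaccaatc
Chaperone genes of the endoplasmic reticulum are known for the ER stress response element, which is CCAAT and CCACG with 9 bases of any kind between them. It lay in 7 of 10 list members with a window and a mean of at least 0.2 UMIs. The share was 0.199% of genes of the level tested and 0.130% of all genes in the table. The list members Herpud1, Xbp1 and Dnajb9, below that mean, had a window without a match. Those with a match were Hspa5, Hsp90b1, Calr, Canx, Pdia6, Dnajc3 and Creld2. Hspa5 lies on chromosome 2 (chr2:34771840-34772089, plus strand) and holds 1 match; Hsp90b1 lies on chromosome 10 (chr10:86705445-86705694, minus strand) and holds 2.
Hspa5: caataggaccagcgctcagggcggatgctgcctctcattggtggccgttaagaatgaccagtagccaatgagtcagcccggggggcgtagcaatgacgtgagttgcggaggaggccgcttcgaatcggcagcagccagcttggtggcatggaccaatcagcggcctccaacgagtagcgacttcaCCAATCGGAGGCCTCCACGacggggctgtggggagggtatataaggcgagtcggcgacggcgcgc
Hsp90b1: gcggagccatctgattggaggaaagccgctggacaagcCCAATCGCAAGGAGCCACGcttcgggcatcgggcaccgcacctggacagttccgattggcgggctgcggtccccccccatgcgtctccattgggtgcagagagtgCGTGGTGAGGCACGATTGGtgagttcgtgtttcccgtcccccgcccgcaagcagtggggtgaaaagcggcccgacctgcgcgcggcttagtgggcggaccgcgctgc
The CHR element overlaps no other motif searched, and the CCAAT of the ER stress response element is also the CCAAT box. A match is a description of letters and not a site of binding.

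Histone genes formed a block that included the pair of highest r. Hist1h2ae (chromosome 13, 23570517 to 23571220) ran from 0 to 92 UMIs with a median of 15, and Hist1h2ap (chromosome 13, 21833026 to 21833507) from 0 to 92 with a median of 28. Their r of 0.85 was the highest of all pairs, but they are near-identical copies whose reads the counting could split, so it is uncertain. The linker histone gene Hist1h1b, whose sequence is distinct, had r = 0.65 with both, Hist1h3c had 0.63 with Hist1h2ae, and Hist1h1b with Hist1h1e had 0.60. The summed histone level ran from 2 to 303 UMIs per cell with a median of 95. In the same 231 pairs, 55 reached 0.2 in the control and 200 at 6 h. Levels differed as well, with a mean Hist1h2ae level of 17.3 UMIs at 3 h, 4.79 in the control library and 17.7 in the 6 h library. Only polyadenylated RNA was measured, so histone counts throughout need not stand for all histone RNA.

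Mitotic genes formed a separate block that was low where histones were high. Ube2c, the ubiquitin-conjugating enzyme of the anaphase-promoting complex, ran from 0 to 35 UMIs with a median of 4, and its closest genes were Cks2 (r = 0.45), Cenpa (0.44) and Aurka (0.37). Ccnb1, which encodes cyclin B1, followed Ube2c (0.33), Aurka (0.28) and Cenpa (0.27). The lowest r of all pairs were Cdc20 with Hist1h2ap at -0.39 and Ube2c with Hist1h2ae and Hist1h2ap, both at -0.39. Across cells the summed histone and G2/M list levels had a Spearman rho of -0.33. When cells were ranked by histone level into 10 groups of equal size, the mean of Ube2c was lower in each successive group, from 8.36 UMIs in the lowest to 2.61 in the highest. Cdc20, the activator of the anaphase-promoting complex, had means of 4.57 and 1.54 at these ends. Top2a, the topoisomerase of S phase, G2 and mitosis, had the opposite order at the ends, 3.04 and 5.72, with its highest mean of 6.25 in group 6, and Pcna, a replication clamp, stayed between 4.34 and 5.48. Median UMIs before thinning were 36029 in the lowest group, 66757.5 in group 4 and 49324 in the highest, and histone level had a rho of 0.15 with total UMIs; their part in this pattern was not tested. The S phase list itself held no pair at 0.2 among 741. Ccne1, which encodes cyclin E1, had its best partner in Uhrf1 at only 0.15.

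**Figure D3:**
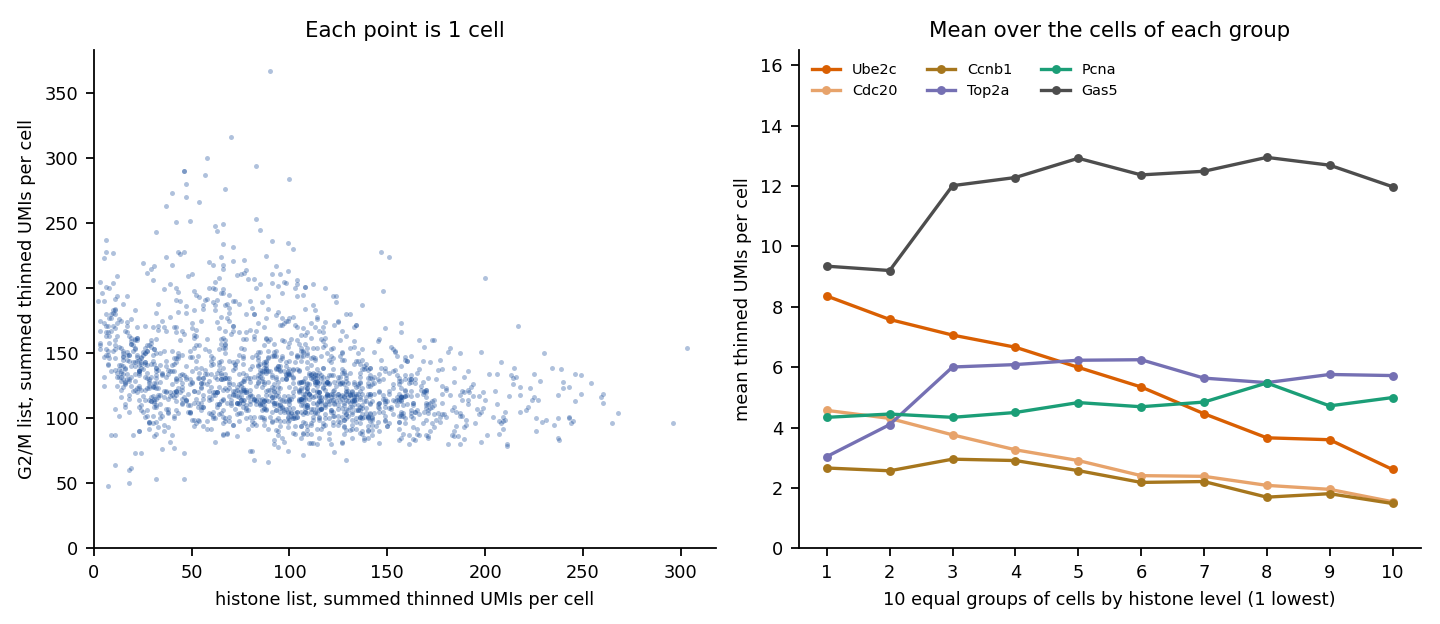
Left, summed thinned UMIs of the histone list (x) and of the G2/M list (y) for each of 1739 cells, with high G2/M levels mostly at low to middle histone levels. Right, mean thinned UMIs per cell of 6 genes over 10 equal groups of cells by histone level: Ube2c runs from 8.36 down to 2.61 and Cdc20 from 4.57 to 1.54, while Top2a runs from 3.04 to 5.72.

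The Id genes, inhibitors of basic helix-loop-helix factors, varied together although they lie on 3 chromosomes. Id1 (chromosome 2, 152736251 to 152737410) ran from 0 to 27 UMIs with a median of 3, Id3 (chromosome 4, 136143497 to 136145755) from 0 to 41 with a median of 3, and Id2 (chromosome 12, 25093799 to 25097140) from 0 to 21 with a median of 1. Id1 had r = 0.74 with Id3 and 0.68 with Id2, and Id3 with Id2 had 0.63. Gadd45g followed them, with 0.32 for Id1, 0.32 for Id2 and 0.22 for Id3, and also Cdkn1c, an imprinted inhibitor of cyclin-dependent kinases, at 0.26. Its lowest partner was Hist1h2ap at -0.24. The metallothionein genes Mt1 and Mt2, neighbours on chromosome 8 with starts 6.418 kb apart, had r = 0.67.

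The p53 targets moved together in a minority of cells. Plk2 and Btg2 had r = 0.51, although the mean of Plk2 (0.26) put it outside the counted pairs. Btg2 with Phlda3, an inhibitor of Akt, had 0.46, Phlda3 with Mdm2, the ubiquitin ligase of p53, 0.45, Btg2 with Mdm2 0.42 and Phlda3 with Ccng1, cyclin G1, 0.42. Summed UMIs of Plk2, Phlda3, Mdm2 and Cdkn1a were 0 in 395 cells and at least 11 in 95 cells, a limit chosen after the values were seen. In genes not used for that choice, Ddit4l had a mean of 1.83 UMIs in the 95 cells and 0.0608 in the 395. Trp53inp1 had 2.52 and 0.127, and Btg2 3.47 and 0.185. These genes were also close partners of Plk2 in the same cells, with r = 0.47 for Ddit4l, 0.48 for Trp53inp1 and 0.51 for Btg2. Their contrast is therefore not independent of the choice of cells. Jun, the AP-1 subunit, had 2.09 and 0.554, and Gadd45g 3.43 and 1.096. The p53 list members Gadd45a, Gadd45b and Bax differed less, with means in the 95 cells 1.11, 1.34 and 1.36 times those in the 395. Genes without such a contrast were Atf4, the effector of the integrated stress response, at 6.69 and 7.19, and Pou5f1 at 7.97 and 8.79. Median UMIs before thinning were 45906 and 52228, and the median mitochondrial share 3.82 and 3.45%. Within the list 9 of 45 pairs reached 0.2, against 6 in the control and 11 at 6 h for the same genes.

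**Figure D4:**
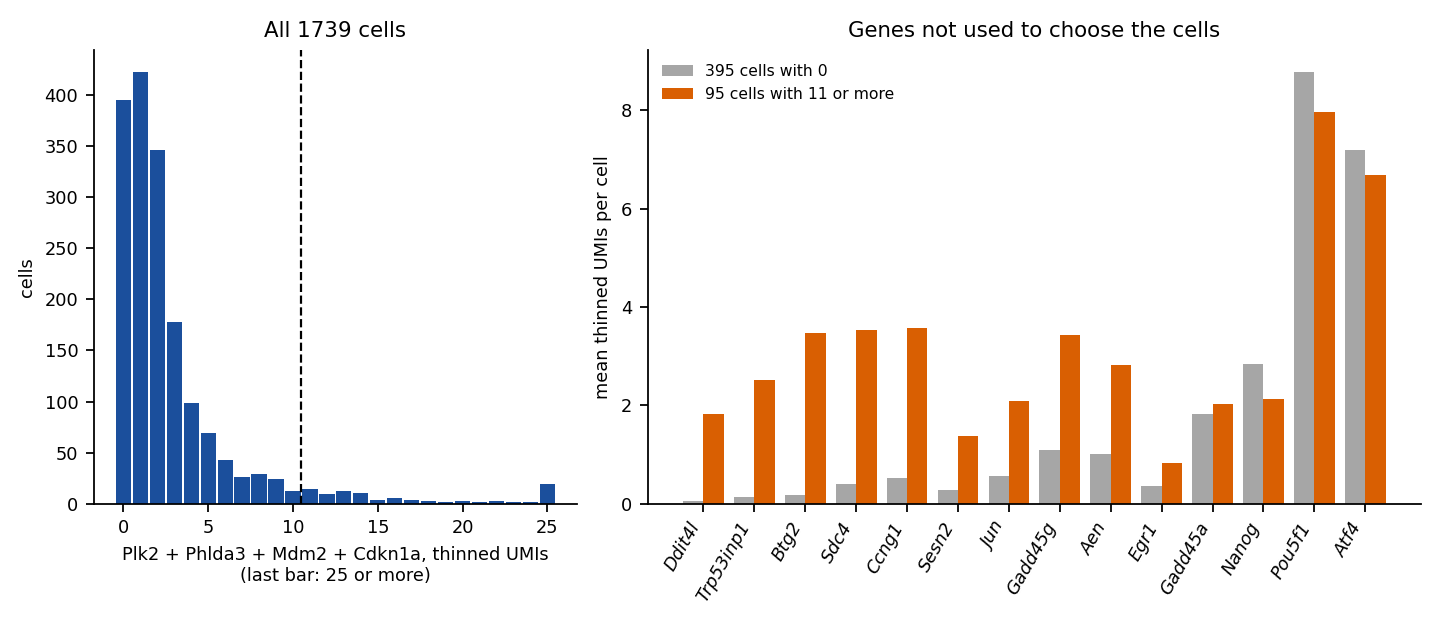
Left, number of cells by summed thinned UMIs of Plk2, Phlda3, Mdm2 and Cdkn1a, with the dashed line below 11. Right, mean thinned UMIs per cell of 14 genes not used to choose the cells, in the 395 cells with 0 (grey) and the 95 cells with at least 11 (orange): Ddit4l, Trp53inp1 and Btg2 are far higher in orange, while Pou5f1 and Atf4 are slightly lower. Ddit4l, Trp53inp1 and Btg2 are close partners of Plk2, so their contrast is not independent of the choice.

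Jun had p53 targets among its closest genes. Its closest genes were Btg2 (0.26), Plk2 (0.24), Perp, a p53 target of cell adhesion (0.22), Ddit4l (0.21) and Jund, another AP-1 subunit (0.21). Egr1 had weaker partners, led by Junb at 0.19 and Btg2 at 0.18. Junb, which ran from 0 to 17 UMIs with a median of 1, had its closest gene in Nfkbia, the inhibitor of NF-kappa-B, at 0.44. Within the immediate early list 2 of 28 pairs reached 0.2.

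The snoRNA hosts formed a block whose summed level ran opposite to that of the chaperones. Gas5 (chromosome 1, 161034422 to 161038539) followed 1110038B12Rik (0.43), 2410006H16Rik (0.42), Snhg1 (0.39), Snhg12 (0.29) and Zfas1 (0.27), which lie on other chromosomes. Of 78 pairs in the list 26 reached 0.2, against 0 in the control and 32 at 6 h for the same genes. Gas5 had a mean of 11.8 UMIs at 3 h, 2.62 in the control library and 15.2 in the 6 h library, so the control pairs were measured at a lower level. The lowest partners of Gas5 were the chaperone genes Calr at -0.23 and Hsp90b1 at -0.22. Members differed in this: with Calr, Snhg1 had -0.18, Snhg12 -0.11 and Zfas1 only -0.06. Between list levels, snoRNA hosts had a rho of -0.32 with the chaperones and 0.38 with histones, and the chaperones had -0.29 with histones. Total UMIs had a rho of 0.23 with the host level and of -0.17 with the chaperone level, and the part of cell size or depth in this was not tested.

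Chaperone genes of the endoplasmic reticulum moved with each other. Hspa5, which encodes BiP, ran from 0 to 35 UMIs with a median of 3, Calr (calreticulin) from 0 to 49 with a median of 8 and Hsp90b1 (Grp94) from 0 to 26 with a median of 6. Calr with Hsp90b1 had r = 0.39 and Hspa5 with Calr 0.37. In the list 8 of 45 pairs reached 0.2, against 14 in the control and 5 at 6 h. Hspa5 had a mean of 3.91 UMIs at 3 h, 6.00 in the control library and 3.17 in the 6 h library. The pairs were thus measured at unlike levels.

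Pluripotency genes showed few strong pairs among themselves, but some followed genes outside their lists. Nanog ran from 0 to 15 UMIs with a median of 2 and was called variable at 0.18, and Zfp42 (Rex1) ran from 0 to 25 with a median of 8. Nanog had its best partner in Zfp42 at 0.18, followed by the mitotic genes Cenpa (0.17) and Aurka (0.15), and its lowest in Hist1h2ap at -0.17. Pou5f1 had its best partners in Gabarapl2 and Utf1, both at 0.13. No pair reached 0.2 among 78 naive pairs or 66 core pairs. The core member L1td1 had r = 0.48 with Ncl and 86 partners at 0.2 or above, and the naive member Dppa5a had 0.31 with Rps18 and 46 such partners. The summed core list had a rho of -0.40 with ribosomal protein genes and of 0.25 with ERK feedback genes. This sum does not stand for each member. L1td1 had a mean of 10.1 UMIs of the 55.6 of the list. Pou5f1 had r of only 0.007 with Rps18, 0.012 with Rpl15 and 0.005 with Rps27a. The naive genes Tfcp2l1, Nr5a2 and Esrrb and the core genes Trim28, Dppa4, Dppa2 and Pou5f1 were not called variable.

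Cytosolic ribosomal protein genes moved together and were low where Malat1 was high. Rps27a had r = 0.61 with Rpl15 and 0.60 with Rps18. Malat1, a nuclear long noncoding RNA, ran from 1 to 281 UMIs with a median of 34 and had -0.38 with both Rpl14 and Rpl13. Its closest gene outside these families was Hnrnpa3, an RNA-binding protein, at 0.47. Nucleolin (Ncl) had its closest gene in L1td1, an RNA-binding protein of stem cells, at 0.48, with Hnrnpu at 0.45 and Hspd1, a mitochondrial chaperonin, at 0.40. Ncl, Hnrnpu and Hspd1 all lie on chromosome 1, which was high as a whole in some cells (below). The part of this in their r was not tested. Ribosomal protein genes held a median of 3724 of the 15000 UMIs, and the part that the fixed total has in their negative values was not tested. The overlapping transcripts Gm42418 and AY036118 (r = 0.54) had the strongest ties to depth, with rho of -0.73 and -0.60 to total UMIs. Next came mt-Co3 at -0.30 and Lars2, a mitochondrial leucyl-tRNA synthetase, at -0.28, and the highest positive rho was 0.23 (Gapdh), and total UMIs and mitochondrial share had a rho of -0.24.

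Chromosomes were examined because some cells were high across many genes of chromosome 1, a search begun after values were seen. The summed level of chromosome 1 genes, without ribosomal protein and histone genes, had a median of 663 UMIs per cell. It was at least 1.3 times the median in 67 cells, which is 3.85% (exact binomial 95% interval 3.00 to 4.87%, counting error only). The share was 3.16% in the control and 3.80% at 6 h. When the high cells were chosen without a given window of 25 Mb, that window was still higher in them in all 8 windows, with ratios from 1.39 to 1.55. Of 201 chromosome 1 genes with a mean of at least 0.5, 198 were higher in the 67 cells, with a median ratio of 1.41, although these genes also made up the choice. Genes elsewhere had a median ratio of 0.963, and the other chromosomes ran from 0.926 (chromosome 7) to 1.06 (chromosome 19). Median UMIs before thinning were 50579 in the high cells and 51916 in the rest. Chromosome 19 came next, with 30 cells (1.73%) at 1.3 times its median. DNA was not measured.

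**Figure D5:**
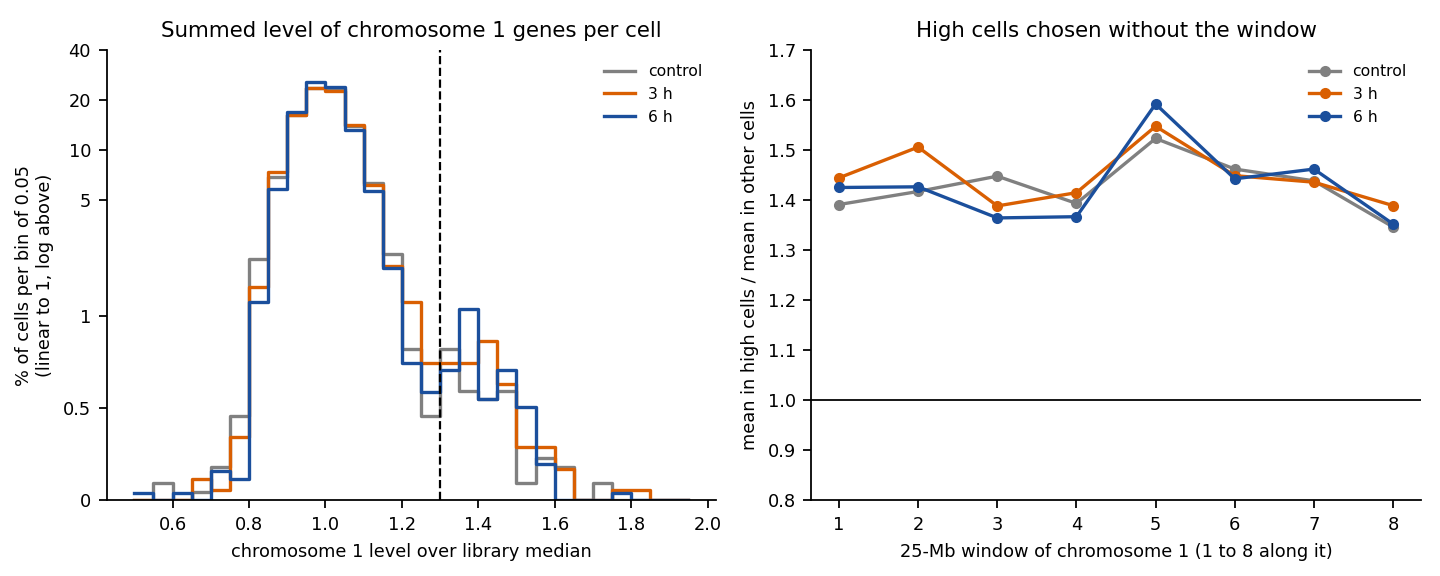
Left, percent of cells of each library by the summed chromosome 1 level over the library's median (bins of 0.05, vertical axis linear to 1 and log above), with the dashed line at 1.3 and a shoulder to its right in all 3 libraries. Right, mean level in high cells over that in other cells for 8 windows of 25 Mb, with high cells chosen without the window: at 3 h all 8 lie between 1.39 and 1.55.

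Stmn2 also marked a group of cells. It was at 0 in 1402 cells and at 3 or more UMIs in 228 cells, which is 13.1%, against 12.7% in the control and 12.9% at 6 h. Its closest gene was Rpl23 at r = 0.40, a ribosomal protein gene of chromosome 11 that had r = 0.72 with Rpl19, 249 kb away. In the 228 cells Rpl23 had a mean of 92.5 UMIs against 65.6 in cells without Stmn2, which is 1.41-fold, and Rpl19 was 1.37-fold higher. Neighbours of these genes that encode other products had ratios of 1.41 (Mrpl45, a mitochondrial ribosomal protein), 1.34 (Psmb3, a proteasome subunit), 1.23 (Lasp1), 1.17 (Cdk5rap3) and 1.08 (Med1). Ribosomal protein genes elsewhere had ratios of 1.03 (Rpl15), 1.03 (Rps27a), 1.04 (Rpl8) and, for Rpl37a on chromosome 1, 1.14. The X-linked gene Mid1 had 4.87 UMIs against 2.79, and is 2 times or more as high in free RNA as in cells, with 546 against 208 CPM. These groups of cells were defined from the data, and their cause was not tested.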

How the data were processed

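The deposited matrices hold unnormalised UMI counts, which the authors made with Cell Ranger 4 per the file headers (version 4.0.0 and build mm10 per the submitters' processing notes). The annotation is not given in the sources used here. Barcodes had not been filtered, and no source used here says how reads shared by overlapping genes or close copies were assigned. Gene positions came from GENCODE M21 (GRCm38) by identifier, which matched 32158 of 32285 genes. Upstream sequences came from RefSeq on GRCm38.p6, by NCBI gene identifier.

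Cells were thinned to 15000 UMIs in Python 3.11.15 with numpy 2.4.6 and scipy 1.17.1; the first of 5 draws is reported. Excess squared CV was compared within 20 bins of mean. List levels are summed UMIs, with shared genes left out of rho. Functions were tested on simulated data. Named genes were the 20 highest and 10 lowest in excess squared CV, the 15 highest and 5 lowest pairs, the partners of 8 marker genes, leading members of 25 lists, and genes tied to depth; others were chosen after their values were seen. A gene and a pair that met this rule are not reported here. The members and lists were chosen with earlier results of these data known. Alternatives covered depth, draws, large cells, floors, limits and correlation measures. No doublet caller was run.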

Additional observations from a re-analysis of the deposited data

How the results depend on the processing

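No paired analysis was possible because each condition had 1 library, and for the same reason no replicate could be left out. Values below come from the 3 h library. The count of variable genes (1489) was 881 with a minimum mean of 0.5, 516 with a minimum mean of 1 (added after seeing the data) and 745 with a limit of 3 times the bin median. It stayed within 1.5 times under the other alternatives, from 1459 without genes high in free RNA to 1995 with genes capped at the 99th percentile. Pairs at 0.2 or above (6120) and at -0.2 or below (3056) numbered 13164 and 8601 with thinning to 1.83 times as many UMIs per cell, which leaves out 147 shallower cells, 3899 and 1655 in the 869 cells between the quartiles of total UMIs, and 1856 and 91 at a limit of 0.3. The rho of histone and G2/M levels (-0.33) was -0.34 without cells above 2 times the median UMIs and -0.30 as a Pearson r. All 200 values of r of the named pairs and all 270 excess squared CVs of the 20 leading genes kept their sign, although 80 and 58 of them lay outside the range of the 5 draws. The share of cells high on chromosome 1 was 5.81% at a limit of 1.2 and 2.36% at 1.4, both added after seeing the data. Depth limits the calls at low means, and correlations of sparse genes are understated by counting noise.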
